A study of Mus musculus with 12 samples.

Results

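The mitosis and spindle genes were 50 genes of the cell division machinery, taken by gene symbol from the raw count table of mouse NIH3T3 fibroblasts. All 50 symbols were found among the 54446 genes of the table, and all 50 were among the 14724 genes that passed the filter on low counts. The study compared wild-type NIH3T3 cells, an established line of mouse embryo fibroblasts, with ΔN-VEGF cells, in which CRISPR/Cas9 editing removed the N-VEGF coding stretch upstream of the classical start of Vegfa from both alleles. Each line was sampled in normoxia and after 16 h of hypoxia, below 0.2% oxygen, with 3 numbered replicates in each of the 4 groups and 12 RNA-seq libraries in all. The comparisons asked how the oxygen response of these genes differed with and without N-VEGF, a nuclear fragment of the long VEGF isoform. The ΔN-VEGF line went through selection of single clones and a recombinase step, and the sources do not say which clone gave the RNA, so the deletion and the history of a clone cannot be told apart. Vegfa, the edited gene, was at 86.2, 39.4 and 82.7 CPM in wild-type normoxia, 277, 272 and 291 in wild-type hypoxia, 37.3, 34.2 and 35.5 in ΔN-VEGF normoxia and 437, 419 and 430 in ΔN-VEGF hypoxia. These counts cover the whole gene, so they do not check the deletion. CPM is the count scaled to the TMM-adjusted library size, in the usual per-million unit, and values in a group are given in the order of replicates 1, 2 and 3.

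In a dividing cell, cyclin A and cyclin B partners of CDK1 start mitosis, Polo-like and Aurora kinases build the spindle, and kinetochores tie each chromosome to microtubules. The spindle checkpoint holds back the anaphase-promoting complex until every kinetochore is attached, after which separase cuts cohesin, and the central spindle and contractile ring divide the cell. Transcripts of these genes are made mainly in G2 and M phase and are known targets of the MuvB complexes, B-MYB, FOXM1 and NF-Y. In bulk RNA, fewer cells in these phases and less RNA of these genes per cell cannot be told apart.

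Libraries held 30519052 to 43056690 counts on genes. A gene is called at an adjusted p below 0.05 in edgeR's quasi-likelihood test over all 14724 genes. All 7 oxygen response genes checked (Slc2a1, Pdk1, Car9, Bnip3, Ndrg1, Egln3 and Ankrd37) rose in both lines. Of 7 fibroblast markers 6 passed the filter on low counts and Lum was at or near 0, and of 10 markers of other cell types 2, Epcam and Myod1, were at 0 in all libraries. The summed level of those 10 was 7.57 to 8.66 CPM in wild-type normoxia, 12.3 to 14.4 in wild-type hypoxia, 6.27 to 7.15 in ΔN-VEGF normoxia and 24.9 to 31.2 in ΔN-VEGF hypoxia, mostly from Cdh5 and Cd68. The summed level of the fibroblast markers was 22800, 16600 and 21500 CPM in the normoxia replicates of the wild type and 26700 to 28900 CPM in its hypoxia libraries. The same sums for the ΔN-VEGF line were 19300 to 21000 and 40300 to 42400 CPM. The part of either marker list in the results was not tested. Nothing in the labels says how the cultures were separated, so p-values measure the spread between these samples, which may be technical.

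One library stands apart for these genes. Wild-type normoxia replicate 2 was above both other wild-type normoxia libraries for 50 of 50 mitosis and spindle genes, against 47.1% of all tested genes. Its level was 1.85 to 5.54 times the mean of replicates 1 and 3, with a median of 3.34, while the median over all tested genes was 1. It was also above every ΔN-VEGF normoxia library for all 50. In the same library Col1a1, Col1a2, Fn1 and Pdgfrb of the fibroblast markers were below both other replicates, while Vim and S100a4 were above both. Chi-squares of counts per gene between it and replicates 1 and 3 were 335 and 358, against 6.19 between those. ΔN-VEGF normoxia replicate 2 also stood off its group, at 77.3 and 71.5 against 3.94. In the hypoxia groups replicate 2 stood off less, at 15.7 and 17.05 against 2.86 for the wild type, and at 7.67 and 8.12 against 4.34 for the ΔN-VEGF line. For most genes named, the wild-type fold change is therefore given with and without wild-type normoxia replicate 2, and the main counts also without both normoxia libraries numbered 2.

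Hypoxia lowered all 50 genes in ΔN-VEGF cells and most of them in wild-type cells. In ΔN-VEGF cells 50 of 50 fell (26.4% of all tested genes were called lower), all 50 by at least 2-fold (12.7% of all), and for all 50 the hypoxia libraries lay below every normoxia library (35.6% of all). In wild-type cells 35 of 50 fell (18.3% of all), 33 of them by at least 2-fold (6.53% of all), and for 35 the groups did not overlap (21.8% of all). In both lines all 50 fold changes were below 0, so 0 were called higher by edgeR, as also by DESeq2, while of all tested genes 18.2% (wild type) and 26.9% (ΔN-VEGF) were called higher. The median log2 fold change of the 50 genes was -1.34 for the wild type and -2.39 for ΔN-VEGF cells, beside -0.07 and -0.01 over all tested genes.

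Without wild-type normoxia replicate 2, 33 of the 50 fell in wild-type cells (26.9% of all), and these 33 were all among the 35 of the full fit, with Cdk1 and Ccna2 no longer called. Another 6 rose (27.1% of all), namely Bub1, Ndc80, Spc24, Birc5, Gtse1 and Foxm1, and 11 were not called. The median over the 50 genes was -0.58 in that fit. In ΔN-VEGF cells the same fit again called 50 of 50 lower (34.3% of all), with a median of -2.40. Leaving out both normoxia libraries numbered 2 gave 35 lower (32.5% of all) and 7 higher (32.8% of all) in wild-type cells. Each other library left out singly gave 24 to 42 lower and 0 higher.

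**Figure D1:**
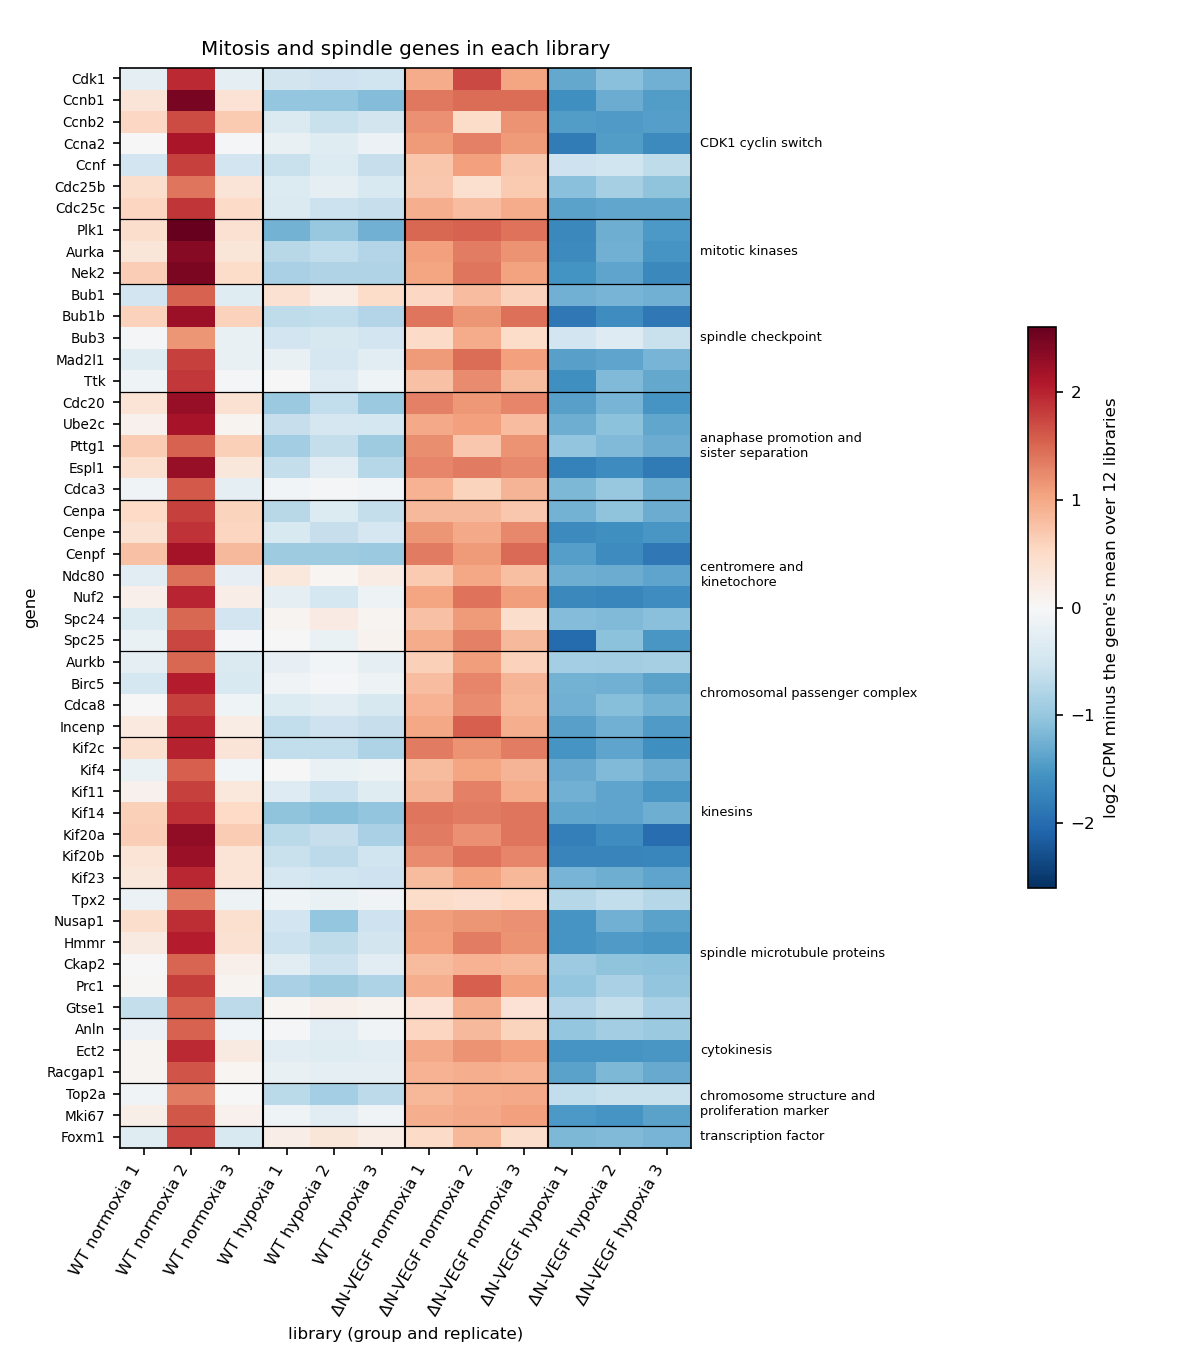
Level of the 50 mitosis and spindle genes (rows, by role) in the 12 libraries (columns), as log2 CPM minus the gene's mean over all libraries, from blue (low) to red (high). The ΔN-VEGF hypoxia columns are the lowest for most genes, and wild-type normoxia replicate 2 is above replicates 1 and 3 for all 50.

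The sum over the genes shows the same order. Averaged over the 50 genes, log2 CPM minus the mean of the gene over all libraries stood at 0.12, 1.86 and 0.13 in wild-type normoxia. After hypoxia the wild-type libraries were at -0.42, -0.44 and -0.43. In ΔN-VEGF cells the same average went from 0.97, 1.11 and 0.98 to -1.33, -1.21 and -1.34. The wild-type hypoxia libraries thus lay close together, between the levels of the ΔN-VEGF groups, and below wild-type normoxia replicates 1 and 3. Scaling by total counts alone, without TMM factors, moved the median of all tested genes to -0.30 for the wild type and -0.41 for ΔN-VEGF cells. On that scale the medians of the 50 genes were -1.51 and -2.79.

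Promoters of 42 of the 50 genes were found in RefSeq (GRCm38.p6), each from 250 bases before to 50 bases after the annotated start. They were searched on both strands for TTTGAA, the core of the cell cycle genes homology region (CHR) that MuvB complexes bind, and for CCAAT, the box bound by NF-Y. The letters of both can share a base at their ends, as happens in the promoter of Cdca8. TTTGAA was in 31 of 42 promoters (73.8%), against 18.1% of 27025 promoters of all genes and 12.1% of 33 promoters of DNA replication genes. Within 60 bases of the start it was in 27 of 42 (64.3%), against 5.63% of all promoters and 6.06% of the replication promoters. CCAAT was in 33 of 42 (78.6%), against 37.9% and 60.6%, and 22 (52.4%) held at least 2 CCAAT boxes, against 12.2% and 39.4%. A match is a string of letters and not a shown binding site.

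The stretch from 100 bases before to 30 bases after the start is printed for 7 genes, 5′ to 3′ on the gene's strand, with every TTTGAA and CCAAT, or its reverse complement TTCAAA and ATTGG, in capitals. They are Cdk1 and its partner cyclins, and genes of later steps described below, and they show how near the start the letters sit. The windows are Cdk1 at chr10:69352883-69353012 (minus strand), Ccnb2 at chr9:70421525-70421654 (minus strand), Cdc20 at chr4:118437314-118437443 (minus strand), Cenpf at chr1:189688057-189688186 (minus strand), Top2a at chr11:99024160-99024289 (minus strand), Bub3 at chr7:131560270-131560399 (plus strand) and Ccnb1 at chr13:100786457-100786586 (minus strand).
Cdk1: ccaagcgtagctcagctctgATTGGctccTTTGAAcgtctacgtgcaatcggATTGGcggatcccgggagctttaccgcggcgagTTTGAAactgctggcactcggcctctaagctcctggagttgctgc
Ccnb2: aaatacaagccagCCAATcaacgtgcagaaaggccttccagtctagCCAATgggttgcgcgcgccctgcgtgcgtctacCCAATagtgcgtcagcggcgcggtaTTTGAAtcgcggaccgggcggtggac
Cdc20: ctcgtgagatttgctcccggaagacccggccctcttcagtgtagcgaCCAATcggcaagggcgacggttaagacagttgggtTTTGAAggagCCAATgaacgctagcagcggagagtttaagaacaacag
Cenpf: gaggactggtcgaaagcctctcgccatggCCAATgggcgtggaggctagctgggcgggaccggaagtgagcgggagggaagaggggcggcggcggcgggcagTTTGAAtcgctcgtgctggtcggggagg
Top2a: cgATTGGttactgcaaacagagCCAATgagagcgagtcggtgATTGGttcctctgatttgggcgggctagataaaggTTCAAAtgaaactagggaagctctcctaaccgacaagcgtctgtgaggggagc
Bub3: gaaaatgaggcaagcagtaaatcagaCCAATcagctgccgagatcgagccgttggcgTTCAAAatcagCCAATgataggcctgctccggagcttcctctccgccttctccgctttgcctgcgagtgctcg
Ccnb1: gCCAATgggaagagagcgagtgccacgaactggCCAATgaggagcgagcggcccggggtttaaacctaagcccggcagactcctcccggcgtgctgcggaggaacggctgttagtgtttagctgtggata
The Ccnb1 window has CCAAT boxes and no TTTGAA, while the Cdk1 window has a pair of each. The 27 genes with TTTGAA within 60 bases had a median log2 fold change of -1.41 for the wild type and -2.33 for ΔN-VEGF cells, and the 15 without it -1.31 and -2.55.

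**Figure D2:**
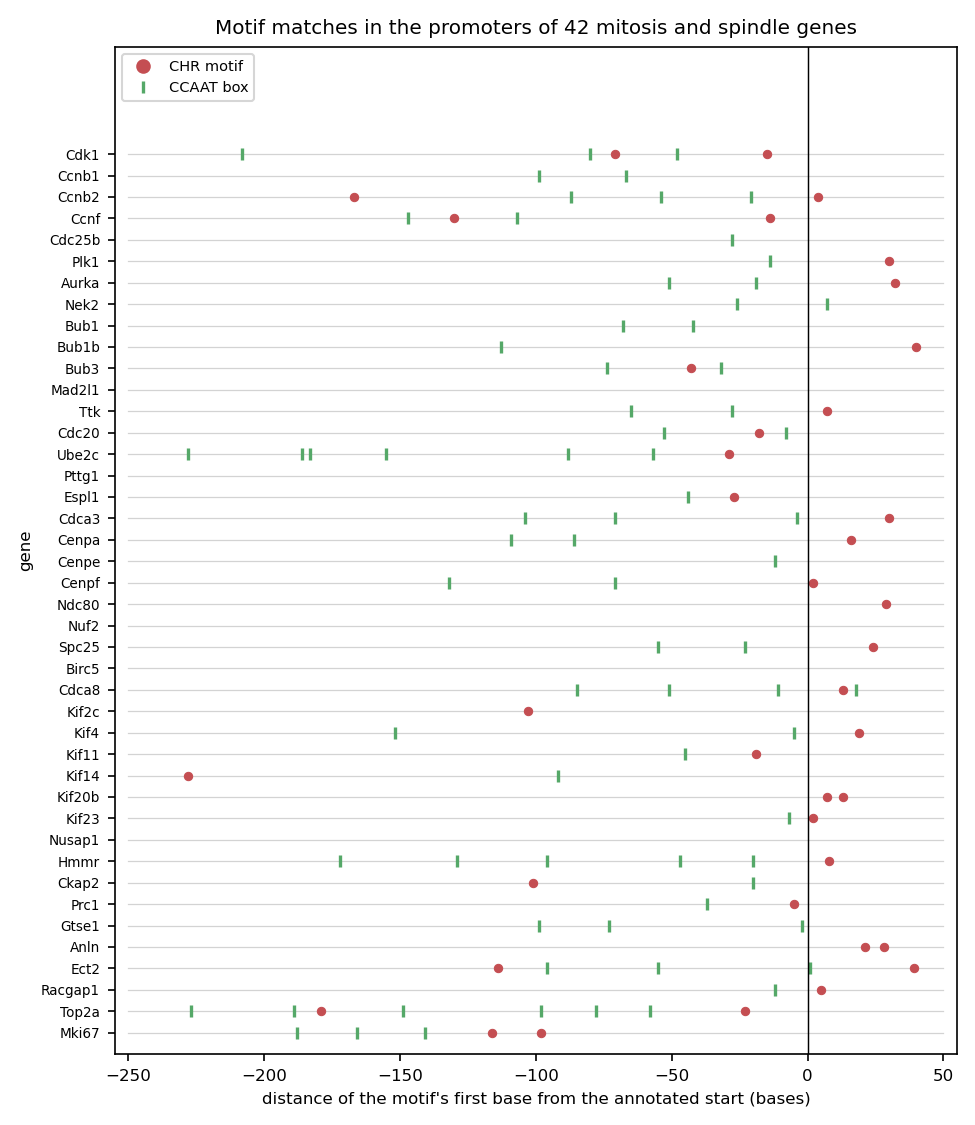
Position of CHR (TTTGAA, red points) and CCAAT (green bars) matches in the promoters of 42 mitosis and spindle genes, by distance in bases from the annotated start (vertical line). Most CHR matches sit within 60 bases of the start (27 promoters), with most CCAAT boxes upstream of the start.

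The CDK1 and cyclin genes hold the switch into mitosis. Of 7 genes, 6 fell in wild-type cells (18.3% of all tested genes were called lower) and 7 in ΔN-VEGF cells (26.4% of all) after hypoxia. The median log2 fold changes were -1.41 and -2.47. Without wild-type normoxia replicate 2 the wild-type count was 4 (26.9% of all) and the median -0.72. Ccna2 (cyclin A2, ENSMUSG00000027715, chr3:36564865-36572150), with the highest mean of them over the 12 libraries, was at 69.2, 298 and 65.8 CPM in wild-type normoxia, 59.6, 54.7 and 61.4 in wild-type hypoxia, 149, 171 and 147 in ΔN-VEGF normoxia and 19.3, 24.9 and 21.7 in ΔN-VEGF hypoxia. The ΔN-VEGF hypoxia libraries were the lowest and did not overlap any other group, while wild-type hypoxia lay just under wild-type normoxia replicates 1 and 3. Ccna2 changed by -1.30 ± 0.47 (SE, adjusted p = 0.0495) in wild-type cells and -2.83 ± 0.50 (SE, adjusted p = 0.000658) in ΔN-VEGF cells, where it was 7.08-fold lower. Without replicate 2 the wild-type value was -0.20 ± 0.10 (SE, adjusted p = 0.124), which is no call. Of the exonic bases of Ccna2, 12.5% overlap Exosc9 on the other strand, and counting by strand was not stated.

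Cdk1, the catalytic subunit, had -1.41 ± 0.50 (SE, adjusted p = 0.0475) in wild-type cells, lost without replicate 2 at -0.26 ± 0.18 (SE, adjusted p = 0.229), and -2.51 ± 0.52 (SE, adjusted p = 0.00195) in ΔN-VEGF cells. Ccnb1, cyclin B1, fell by 2.49 in wild-type and by 2.89 in ΔN-VEGF cells on the log2 scale, and without replicate 2 still by 1.41 in wild-type cells. Ccnb2, cyclin B2, was at -1.56 ± 0.29 (SE, adjusted p = 0.00179) in wild-type cells, -1.09 without replicate 2 and -2.47 in the ΔN-VEGF line. Part of the Ccnb1 sequence (18% of its 80-base words) also occurs in pseudogenes such as Ccnb1-ps, so its count is uncertain. Cdc25b and Cdc25c, phosphatases that activate CDK1, fell in both lines in both fits, by 1.14 and 1.64 in wild-type cells, by 0.72 and 1.04 there without replicate 2, and by 1.61 and 2.29 in ΔN-VEGF cells, with 12.7% of the exonic bases of Cdc25c shared with Gm3550 on the other strand. Ccnf, a cyclin of an SCF ubiquitin ligase, was not called in wild-type cells, at -1.20 ± 0.50 (SE, adjusted p = 0.0821) with all libraries and 0.00 without replicate 2, and fell in ΔN-VEGF cells by 1.42.

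The class named mitotic kinases held Plk1, Aurka and Nek2 and had the lowest wild-type median of the role classes. Other kinases were placed in other classes. Of these, Bub1 (-0.20), Ttk (-1.02) and Aurkb (-0.73) were not called in the full wild-type fit, while Cdk1 (-1.41) fell. All 3 genes of the class fell in wild-type cells (18.3% of all) and in ΔN-VEGF cells (26.4% of all), with medians of -2.304 and -2.72. All 3 also fell in wild-type cells without replicate 2 (26.9% of all), with a median of -1.37. Plk1 (Polo-like kinase 1, ENSMUSG00000030867, chr7:122159439-122169873) was at 53.2, 236 and 51.2 CPM in wild-type normoxia, 16.4, 19.3 and 16.1 in wild-type hypoxia, 109.5, 113 and 104 in ΔN-VEGF normoxia and 12.03, 15.9 and 13.6 in ΔN-VEGF hypoxia. In each line the hypoxia libraries lay well below all normoxia libraries, and the hypoxia groups of the lines did not overlap. Plk1 had the largest fall of the 50 genes in the full wild-type fit, -2.72 ± 0.50 (SE, adjusted p = 0.00156), which is 6.58-fold. It was -1.59 ± 0.11 (SE, adjusted p = 8.42e-08) without replicate 2. In ΔN-VEGF cells it was -2.98 ± 0.51 (SE, adjusted p = 0.00055). Nek2 (a centrosome kinase) was at 33.4, 117 and 30.01 CPM in wild-type normoxia, 11.8, 12.4 and 12.4 in wild-type hypoxia, 44.01, 56.7 and 44.2 in ΔN-VEGF normoxia and 7.21, 8.17 and 6.65 in ΔN-VEGF hypoxia. Its groups followed Plk1, with wild-type normoxia replicates 1 and 3 below the ΔN-VEGF normoxia libraries. Nek2 fell by 2.304 in wild-type cultures and 2.72 in the ΔN-VEGF line, and Aurka, the Aurora kinase of spindle poles, by 2.08 and 2.67. The wild-type falls without replicate 2 were 1.37 (Nek2) and 1.02 (Aurka).

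Of 5 spindle checkpoint genes, 2 fell in wild-type cells (18.3% of all) and 5 in ΔN-VEGF cells (26.4% of all). The medians were -1.02 and -2.33, and the wild-type median was -0.075 without replicate 2. Bub1 (a checkpoint kinase of kinetochores, ENSMUSG00000027379, chr2:127801122-127831865) was at 15.02, 61.5 and 16.9 CPM in wild-type normoxia, 27.7, 24.04 and 29.6 in wild-type hypoxia, 30.8, 36.8 and 32.00 in ΔN-VEGF normoxia and 8.77, 9.01 and 8.86 in ΔN-VEGF hypoxia. The wild-type hypoxia libraries were above wild-type normoxia replicates 1 and 3 and below replicate 2, and the ΔN-VEGF hypoxia libraries were the lowest. Bub1 was not called in the full wild-type fit, at -0.20 ± 0.42 (SE, adjusted p = 0.741). It rose without replicate 2, by 0.77 ± 0.11 (SE, adjusted p = 6.6e-05). In ΔN-VEGF cells it fell by 1.90 ± 0.44 (SE, adjusted p = 0.00384).

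Bub1b, which encodes the checkpoint protein BubR1, fell strongly in both lines, by 2.06 in wild-type cultures and 3.12 in the ΔN-VEGF line, and by 1.30 in wild-type cells without replicate 2. Bub3 (the partner that brings Bub1 and BubR1 to kinetochores, ENSMUSG00000066979, chr7:131560222-131571895) was at 86.99, 199 and 78.02 CPM in wild-type normoxia, 63.9, 67.3 and 63.6 in wild-type hypoxia, 126, 175 and 126 in ΔN-VEGF normoxia and 63.2, 71.5 and 60.1 in ΔN-VEGF hypoxia. The hypoxia libraries of the lines overlapped and all lay below the normoxia libraries. Its fall in ΔN-VEGF cells, -1.13 ± 0.30 (SE, adjusted p = 0.00796), was the smallest of the 50, and the wild-type value was -0.90 ± 0.30 (SE, adjusted p = 0.0343), or -0.34 ± 0.13 (SE, adjusted p = 0.0446) without replicate 2. Mad2l1 (MAD2, the inhibitor of CDC20) was at 13.5, 58.9 and 14.8 CPM in wild-type normoxia, 14.7, 12.5 and 14.04 in wild-type hypoxia, 36.5, 46.5 and 35.8 in ΔN-VEGF normoxia and 6.33, 6.5 and 7.27 in ΔN-VEGF hypoxia. In wild-type cells the hypoxia libraries overlapped normoxia replicates 1 and 3, and Mad2l1 was not called with all libraries (-1.08 ± 0.45, SE, adjusted p = 0.085) or without replicate 2 (-0.04 ± 0.13, SE, adjusted p = 0.814). Ttk, the MPS1 kinase at the head of the checkpoint, was likewise not called in either wild-type fit, at -1.02 and -0.07. In ΔN-VEGF cells Mad2l1 fell by 2.56 and Ttk by 2.33.

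Of 5 genes grouped under anaphase and sister separation, 4 fell in the wild type (18.3% of all) and 5 in ΔN-VEGF cells (26.4% of all). The medians were -1.82 and -2.22, and the wild-type median was -0.89 without replicate 2. Cdc20 (the activator of the anaphase-promoting complex, ENSMUSG00000006398, chr4:118432901-118437352) was at 112, 429 and 117 CPM in wild-type normoxia, 44.7, 56.2 and 45.2 in wild-type hypoxia, 221, 193 and 213 in ΔN-VEGF normoxia and 32.9, 38.1 and 30.1 in ΔN-VEGF hypoxia. Every hypoxia library was below every normoxia library, and ΔN-VEGF hypoxia was below wild-type hypoxia. Cdc20 was -2.17 ± 0.43 (SE, adjusted p = 0.00255) in wild-type cells, against -2.63 ± 0.44 (SE, adjusted p = 0.000487) in ΔN-VEGF cells. Without replicate 2 the wild-type value was -1.23 ± 0.11 (SE, adjusted p = 1.45e-06). Per length it was the most abundant of the 50 in wild-type normoxia, at 117 ± 97 RPKM (SD, n = 3), where RPKM is CPM per kilobase of exons.

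Ube2c, the ubiquitin-conjugating enzyme of the same complex, fell by 1.63 in wild-type cells, 0.58 without replicate 2 and 2.19 in the ΔN-VEGF line, though 22.8% of its exonic bases overlap Tnnc2 on the other strand. Pttg1 (securin) and Espl1 (separase), the inhibitor and protease pair of sister separation, fell by 1.82 and 1.84 in wild-type cells, and by 1.46 and 0.89 without replicate 2. In ΔN-VEGF cells the falls were 2.22 and 3.04. Cdca3, a mitotic entry factor, was the gene of this class that was not called in wild-type cells, with all libraries (-0.75 ± 0.39, SE, adjusted p = 0.156) or without replicate 2 (0.11).

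Centromere and kinetochore genes fell in 4 of 7 cases in the wild type (18.3% of all) and 7 of 7 in ΔN-VEGF cells (26.4% of all). The medians were -1.31 and -2.57, and the wild-type median was -0.415 without replicate 2. The 4 in wild-type cells were Cenpa, the centromeric histone H3, Cenpe, a kinetochore motor, Cenpf and Nuf2. Cenpa fell by 1.66, or by 1.12 without replicate 2. Cenpf (a large outer kinetochore protein, ENSMUSG00000026605, chr1:189640606-189688086) was at 37.98, 101 and 40.1 CPM in wild-type normoxia, 11.6, 11.6 and 11.4 in wild-type hypoxia, 57.3, 48.5 and 61.8 in ΔN-VEGF normoxia and 8.21, 7.14 and 6.1 in ΔN-VEGF hypoxia. The wild-type hypoxia libraries were nearly alike, far below wild-type normoxia and above ΔN-VEGF hypoxia. Cenpf had the largest wild-type fall without replicate 2, -1.75 ± 0.12 (SE, adjusted p = 7.3e-08), and -2.37 ± 0.33 (SE, adjusted p = 0.000224) with it. The ΔN-VEGF value was -2.96 ± 0.34 (SE, adjusted p = 3.12e-05).

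Of the 4 subunits of the NDC80 complex, the microtubule hook of the kinetochore, only Nuf2 was called in the full wild-type fit, and no test set one subunit against another. Ndc80 (ENSMUSG00000024056, chr17:71496100-71526857) was at 9.54, 31.9 and 10.1 CPM in wild-type normoxia, 14.1, 12.1 and 13.4 in wild-type hypoxia, 18.8, 23.6 and 20.1 in ΔN-VEGF normoxia and 4.79, 4.7 and 4.48 in ΔN-VEGF hypoxia. Wild-type hypoxia was above wild-type normoxia replicates 1 and 3, and ΔN-VEGF hypoxia was the lowest group. Ndc80 was -0.38 ± 0.37 (SE, adjusted p = 0.458) in the full wild-type fit and rose without replicate 2 (0.43 ± 0.11, SE, adjusted p = 0.00607). Spc24 likewise was -0.41 and then 0.55 (adjusted p = 0.00813), Spc25 was -0.81 and 0.10 with no call in either, and Nuf2 fell in both, by 1.31 and 0.41. In ΔN-VEGF cells the 4 subunits fell by 2.16 (Ndc80), 2.87 (Nuf2), 1.94 (Spc24) and 2.57 (Spc25). 

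The chromosomal passenger complex corrects faulty attachments and then moves to the midzone. Of its 4 genes, 2 fell in the wild type (18.3% of all) and 4 in ΔN-VEGF cells (26.4% of all). The medians for the complex were -1.09 and -2.26, and the wild-type median was -0.07 without replicate 2. Incenp (its scaffold, ENSMUSG00000024660, chr19:9872297-9899533) was at 109.7, 353 and 105 CPM in wild-type normoxia, 58.3, 62.8 and 59.8 in wild-type hypoxia, 184, 271 and 176 in ΔN-VEGF normoxia and 34.4, 38.4 and 32.6 in ΔN-VEGF hypoxia. Both hypoxia groups lay below all normoxia libraries and did not overlap each other. Incenp was -1.65 ± 0.40 (SE, adjusted p = 0.00745) in wild-type cells, against -2.58 ± 0.41 (SE, adjusted p = 0.000338) in ΔN-VEGF cells. Without replicate 2 the wild-type value was -0.83 ± 0.15 (SE, adjusted p = 0.000438). Cdca8 (borealin) was the other gene that fell in wild-type cells, by 1.19, or 0.30 without replicate 2. Aurkb, the kinase, and Birc5 (survivin) were not called there, at -0.73 and -0.997. Aurkb was at 0.16 without replicate 2, again no call, and Birc5 rose by 0.34 (adjusted p = 0.0325) without replicate 2. In ΔN-VEGF cells Aurkb fell by 1.68 and Birc5 by 2.31.

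Kinesins are the motors that slide and shorten spindle microtubules. Of 7 kinesins, 6 fell in wild-type cells (18.3% of all) and 7 in ΔN-VEGF cells (26.4% of all). The medians were -1.84 and -2.72, and the wild-type median was -0.94 without replicate 2. The 6 also fell in wild-type cells without replicate 2 (26.9% of all), and Kif4, a chromosome motor, was not called in either fit (-0.78 and 0.02). Of the exonic bases of Kif4, 15.1% overlap Pdzd11 on the other strand. Kif20a (MKLP2, which carries the passenger complex to the midzone) was at 78.5, 251 and 78.99 CPM in wild-type normoxia, 30.8, 33.05 and 27.7 in wild-type hypoxia, 128, 116 and 133 in ΔN-VEGF normoxia and 14.4, 16.2 and 12.5 in ΔN-VEGF hypoxia. Every hypoxia library was below every normoxia library, and ΔN-VEGF hypoxia was the lowest group. Kif20a fell by 3.12 ± 0.40 (SE, adjusted p = 7.06e-05) in ΔN-VEGF cells, or 8.72-fold, and with Bub1b, at the same value to 2 decimals, had the largest ΔN-VEGF fall of the 50. The wild-type value was -2.16 ± 0.38 (SE, adjusted p = 0.00119), and -1.36 ± 0.10 (SE, adjusted p = 2.32e-07) without replicate 2. Its exons overlap Cdc23 on the other strand over 29.3% of their bases. Kif14, a cytokinesis motor, fell by 2.23 in wild-type cells, 1.64 without replicate 2 and 2.72 in the ΔN-VEGF line. Kif11, the motor that separates spindle poles, fell by 1.34, 0.59 and 2.45 in the same order. Kif2c, which shortens microtubules, and Kif20b and Kif23 of the midzone fell by 1.84, 1.89 and 1.597 in wild-type cells, and by 1.07, 0.94 and 0.81 without replicate 2. In ΔN-VEGF cells the falls were 2.80, 3.05 and 2.22.

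Spindle microtubule proteins fell in 4 of 6 cases in the wild type (18.3% of all) and 6 of 6 in ΔN-VEGF cells (26.4% of all). The medians were -1.41 and -2.03, and the wild-type median was -0.66 without replicate 2. Tpx2 (the activator of Aurora A on the spindle, ENSMUSG00000027469, chr2:152847964-152895321) was at 121, 343 and 123 CPM in wild-type normoxia, 126, 119.6 and 126 in wild-type hypoxia, 189, 184 and 195 in ΔN-VEGF normoxia and 80.95, 87.1 and 81.2 in ΔN-VEGF hypoxia. Wild-type hypoxia lay at the level of wild-type normoxia replicates 1 and 3, and ΔN-VEGF hypoxia was below every other library. Tpx2 was not called in wild-type cells, at -0.66 ± 0.32 (SE, adjusted p = 0.132), nor without replicate 2, at 0.03 ± 0.07 (SE, adjusted p = 0.749). It fell in ΔN-VEGF cells (-1.19 ± 0.32, SE, adjusted p = 0.00964). Prc1, the bundler of the central spindle, Hmmr, Nusap1 and Ckap2 fell in both lines, by 1.11 (Ckap2) to 1.78 (Nusap1) in wild-type and 1.89 (Ckap2) to 2.72 (Hmmr) in ΔN-VEGF cells. The wild-type falls without replicate 2 were 0.90 (Prc1), 0.88 (Hmmr), 1.09 (Nusap1) and 0.44 (Ckap2). Prc1 shares 11.1% of its exonic bases with Rccd1 on the other strand. Gtse1, a microtubule tip protein, was -0.38 with all wild-type libraries and rose by 0.75 (adjusted p = 0.001) without replicate 2, and fell by 1.35 in ΔN-VEGF cells.

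The cytokinesis genes were Anln, Ect2 and Racgap1. Ect2, the activator of RhoA at the equator, and its partner Racgap1 fell in both lines, by 1.32 and 1.02 in wild-type and 2.62 and 2.21 in ΔN-VEGF cells. The wild-type falls without replicate 2 were 0.45 and 0.27. Anln (anillin, the scaffold of the contractile ring, ENSMUSG00000036777, chr9:22332012-22389188) was at 149.6, 482 and 158 CPM in wild-type normoxia, 162, 138 and 157 in wild-type hypoxia, 247, 299 and 249 in ΔN-VEGF normoxia and 82.5, 88.9 and 85.3 in ΔN-VEGF hypoxia. Wild-type hypoxia overlapped wild-type normoxia, and ΔN-VEGF hypoxia was the lowest group with no overlap. Anln was -0.79 ± 0.36 (SE, adjusted p = 0.11) in wild-type cells and -0.01 without replicate 2, neither a call, and -1.63 ± 0.37 (SE, adjusted p = 0.00325) in ΔN-VEGF cells.

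Topoisomerase II alpha and the proliferation marker Ki-67 fell in both lines. Top2a (ENSMUSG00000020914, chr11:98992943-99024189) was at 291, 798 and 308 CPM in wild-type normoxia, 189.5, 167 and 192 in wild-type hypoxia, 569, 608 and 612 in ΔN-VEGF normoxia and 199, 206 and 207 in ΔN-VEGF hypoxia. Among hypoxic cells it was slightly higher in ΔN-VEGF, and all hypoxia libraries were below all normoxia libraries. Top2a was -1.35 ± 0.31 (SE, adjusted p = 0.00585) in wild-type cells, against -1.55 ± 0.31 (SE, adjusted p = 0.00166) in ΔN-VEGF cells. Without replicate 2 the wild-type value was -0.70 ± 0.07 (SE, adjusted p = 4.6e-06). Mki67 was -0.97 ± 0.33 (SE, adjusted p = 0.0367) and -2.48 ± 0.34 (SE, adjusted p = 0.000122). Its wild-type value without replicate 2 was -0.28 ± 0.08 (SE, adjusted p = 0.00741).

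Foxm1 (the forkhead factor that drives many of these promoters, ENSMUSG00000001517, chr6:128362967-128376146) was at 65.6, 275 and 62.4 CPM in wild-type normoxia, 92.95, 102 and 93.5 in wild-type hypoxia, 117, 150.1 and 112 in ΔN-VEGF normoxia and 36.4, 36.99 and 35.3 in ΔN-VEGF hypoxia. Wild-type hypoxia lay above wild-type normoxia replicates 1 and 3 and far below replicate 2, while ΔN-VEGF hypoxia was the lowest group. Foxm1 was not called in the full wild-type fit (-0.48 ± 0.45, SE, adjusted p = 0.437) and rose without replicate 2 (0.59 ± 0.11, SE, adjusted p = 0.000588). In ΔN-VEGF cells it fell by 1.80 ± 0.47 (SE, adjusted p = 0.00743).

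**Figure D3:**
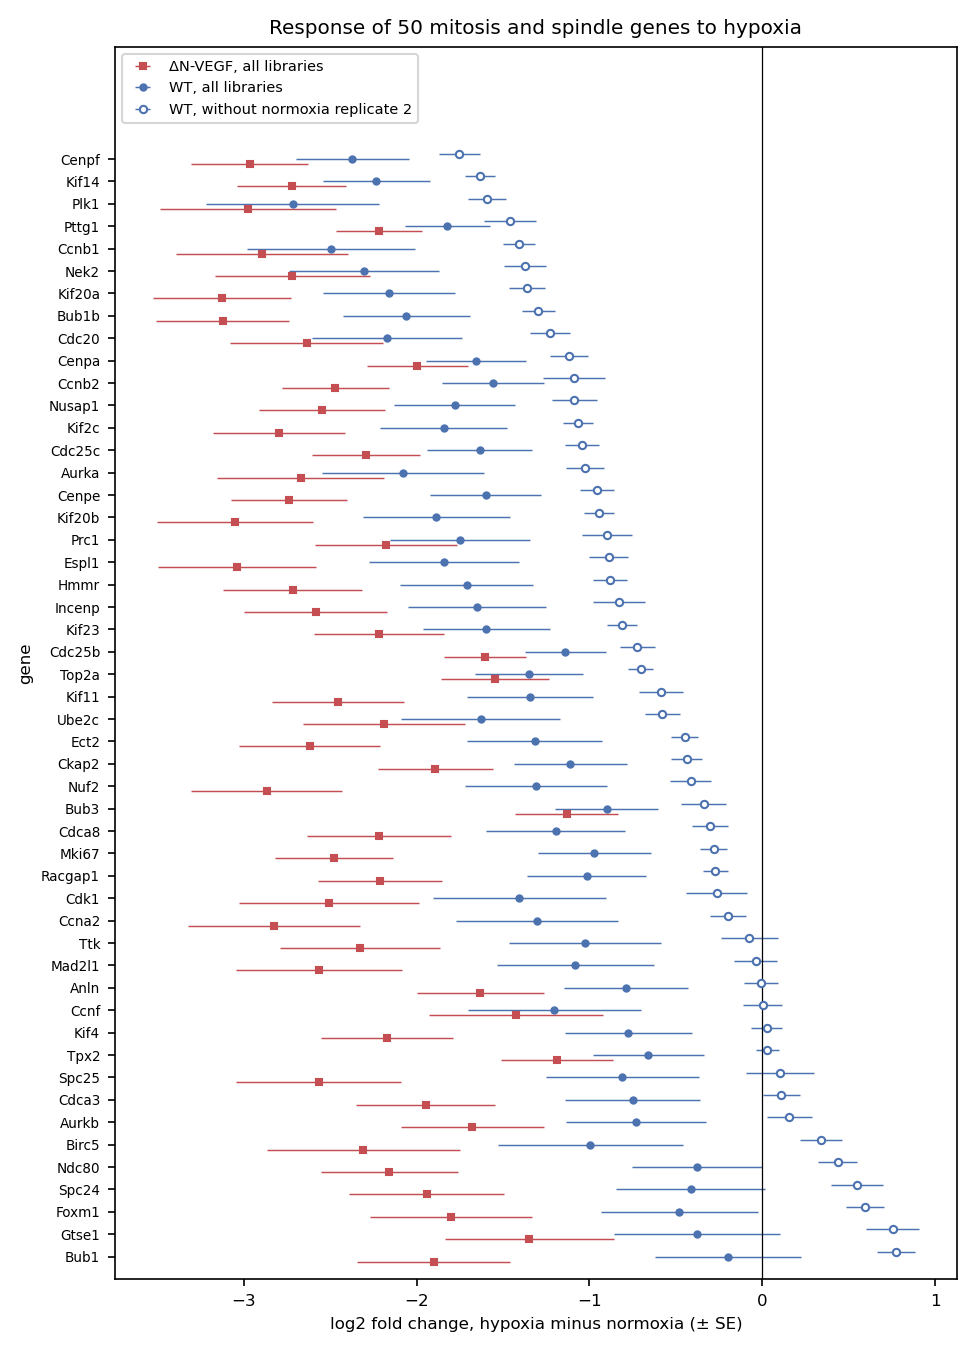
Log2 fold change after hypoxia (x axis, ± SE) of the 50 genes, for ΔN-VEGF cells (red squares), wild-type cells with all libraries (filled circles) and wild-type cells without normoxia replicate 2 (open circles), sorted by the last. All red squares lie below 0, and the open circles run from -1.75 (Cenpf) to 0.77 (Bub1).

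Between the lines in normoxia, no difference was called with all libraries. Of the 50 genes 0 were higher (1.39% of all) and 0 lower (2.97% of all) in ΔN-VEGF cells, 0 passed an unadjusted p below 0.05, DESeq2 called 0, and the smallest adjusted p was 0.58. Without wild-type normoxia replicate 2, 47 of 50 were higher in ΔN-VEGF cells (25.7% of all), with a median log2 fold change of 0.93. The exceptions were Ccnb2 (0.39 ± 0.17, SE, adjusted p = 0.0839), Cdc25b (0.22 ± 0.10, SE, adjusted p = 0.0966) and Cenpa (0.26 ± 0.11, SE, adjusted p = 0.068). Without both normoxia libraries numbered 2, 50 were higher (27.8% of all). For 48 of the 50, wild-type normoxia replicates 1 and 3 were below all 3 ΔN-VEGF normoxia libraries, as they were for 33.4% of all tested genes. In the full fit the values ran from -0.32 (Nek2) to 0.45 (Mad2l1), and without replicate 2 the largest was Cdk1 at 1.54 ± 0.18 (SE, adjusted p = 4.18e-05).

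In hypoxia most of the genes stood lower in the ΔN-VEGF line than in the wild type. For 46 of 50 the ΔN-VEGF hypoxia libraries were all below the wild-type hypoxia libraries (30.1% of all), for 1, Top2a, they were all above (29.7% of all), and for Ccnf, Bub3 and Prc1 they overlapped. In the full fit 9 were called lower (9.36% of all) and 0 higher (10.8% of all), 8 of the 9 by at least 2-fold (3.94% of all), with a median over the 50 of -0.85. The 9 were Bub1 (-1.61 ± 0.44, SE, adjusted p = 0.0256), Ndc80 (-1.504 ± 0.39, SE, adjusted p = 0.0209), Spc25 (-1.49 ± 0.47, SE, adjusted p = 0.0471), Nuf2, Mki67, Ect2, Kif4, Cenpe and Ccnb2, of which 4 belong to the centromere and kinetochore class. A fit to the 6 hypoxia libraries alone, which takes no spread from wild-type normoxia, called 46 lower (29.1% of all) and Top2a higher (27.9% of all). The 12-library fit without wild-type normoxia replicate 2 called 45 lower (21.2% of all), and without both normoxia libraries numbered 2 it called 46 lower (28.3% of all) and 1 higher (27.5% of all). The count of 9 also moved with other libraries. It was 17 and 19 without wild-type normoxia replicates 1 and 3. It was 0, 2 and 0 without wild-type hypoxia replicates 1, 2 and 3, and 0 without any 1 of the ΔN-VEGF hypoxia libraries. Without ΔN-VEGF normoxia replicates 1 and 3 it was 3 and 4. The share of all tested genes is not given for these left-out fits, so their counts cannot be set against it.

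The difference between the responses of the lines was tested as an interaction. All 50 genes had the larger fall in ΔN-VEGF cells, and the median difference was -0.96 on the log2 scale, beside 0.03 over all tested genes. With all libraries 0 of 50 were called lower (1.15% of all) and 0 higher (2.21% of all), 12 had an unadjusted p below 0.05, DESeq2 called 2, and the smallest adjusted p was 0.093. Without wild-type normoxia replicate 2, 50 of 50 were called lower (23% of all), as were 50 without both normoxia libraries numbered 2 (27% of all). Ndc80 had the largest difference with all libraries, -1.78 ± 0.54 (SE, adjusted p = 0.0928), and Top2a the smallest, -0.20 ± 0.43 (SE, adjusted p = 0.826). Without replicate 2 these were -2.60 and -0.85. Both responses and both line comparisons share libraries, so their values are set side by side and not counted as separate evidence.

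Within a library, the genes can also be set against each other, which takes out the overall level. Each gene's log2 CPM was taken relative to the mean of the 50 in the same library. On this scale losses and gains balance by construction, and no test was made. On the wild-type side, the genes that lost most relative level were Plk1 (-1.19, with -0.67 for ΔN-VEGF cells), Cenpf (-1.08 and -0.65), Ccnb1 (-0.98 and -0.58), Kif14 (-0.94 and -0.40) and Nek2 (-0.87 and -0.39). Those that gained most were Bub1 (1.25 and 0.42), Gtse1 (1.15 and 0.99), Spc24 (1.03 and 0.40), Foxm1 (1.02 and 0.52) and Ndc80 (0.99 and 0.17). In ΔN-VEGF cells Bub3 (1.19), Tpx2 (1.12), Gtse1 and Ccnf (0.90) gained most, and Kif20a (-0.81) and Bub1b (-0.81) lost most. In wild-type normoxia replicate 2 the relative level of Bub1 was -1.08 against -1.38 and -1.22 in replicates 1 and 3, and that of Cenpf -0.36 against -0.04 and 0.03.

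**Figure D4:**
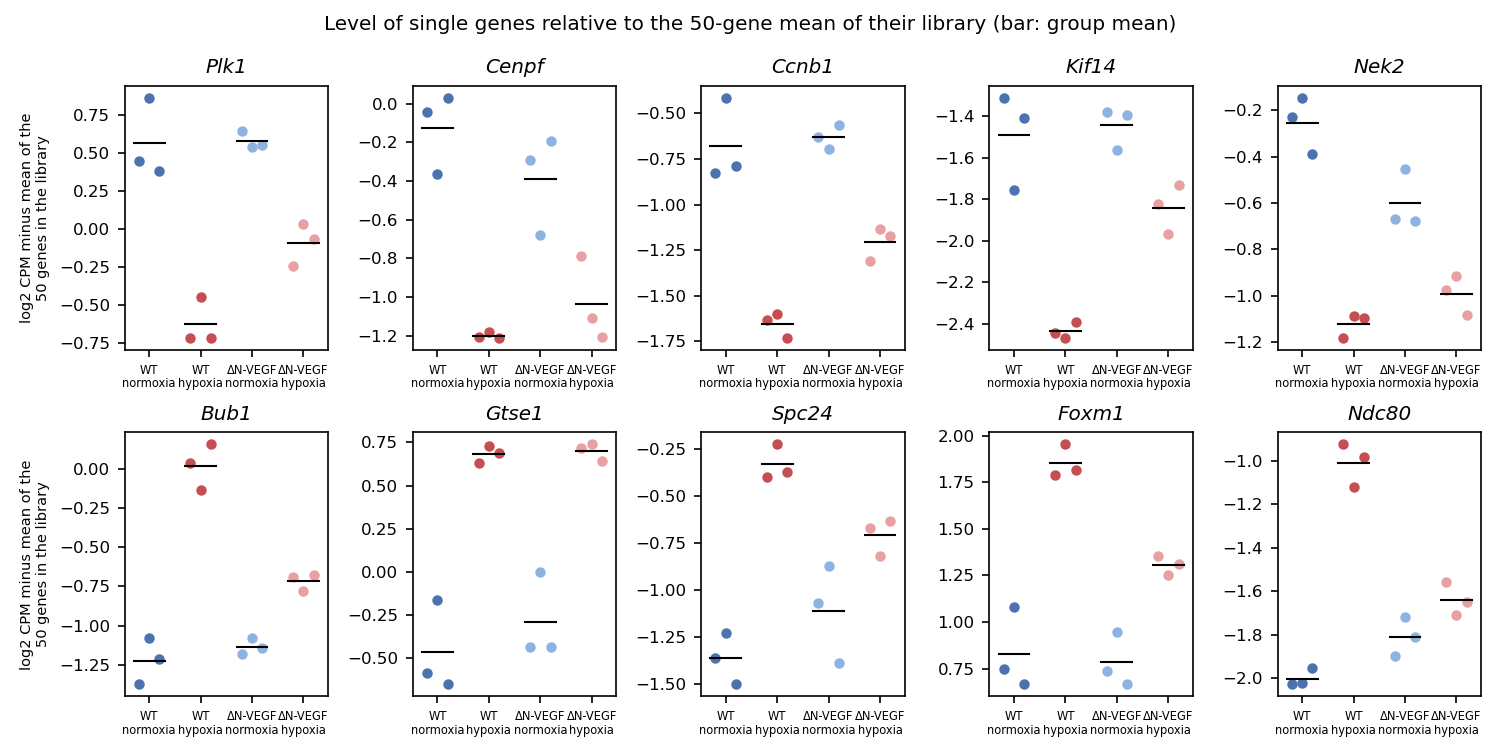
Log2 CPM of single genes minus the mean of the 50 genes in the same library (y axis), for each of the 4 groups, with points for libraries and a bar for the group mean. The group means of the 5 genes in the upper row, chosen as the lowest in wild-type cells on this scale, are lower after hypoxia in both lines, and those of the 5 in the lower row, chosen as the highest, are higher.

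Other division genes, listed by function, are set beside the shares of all tested genes called lower, 18.3% for the wild type and 26.4% for the ΔN-VEGF line, and called higher, 18.2% and 26.9%. In wild-type cells without normoxia replicate 2 these shares were 26.9% lower and 27.1% higher. With all libraries, the wild-type counts of lower calls in this paragraph and the next were near the share of all genes, except for the first list. Of 29 further spindle and cytokinesis genes 19 fell in wild-type cells, and 25 did so in ΔN-VEGF cells, where 1 rose. Aspm, a spindle pole protein, fell by 2.32 and 2.81, and by 1.71 in wild-type cells without replicate 2. In that fit 18 of the 29 fell and 5 rose in wild-type cells. Of 35 further kinetochore and centromere genes 6 fell and 1 rose in wild-type cells, and 27 fell and 2 rose in ΔN-VEGF cells, with Sgo2a, a protector of centromeric cohesin, at -1.22 and -2.64, and at -0.47 in wild-type cells without replicate 2. With replicate 2 left out, the wild-type counts were 5 lower and 13 higher of the 35. Of 30 further mitotic regulators 5 were called lower and 1 higher in wild-type cells, and 16 lower and 2 higher in ΔN-VEGF cells. With replicate 2 left out, the wild-type counts were 6 and 8. Wee1, the kinase that restrains CDK1, was at -1.52 in wild-type cells (-1.03 without replicate 2). Its interaction was -0.47 (adjusted p = 0.521) with all libraries and -0.97 (adjusted p = 0.000764) without replicate 2. Fbxo5, an inhibitor of the anaphase-promoting complex, was at -2.64 in ΔN-VEGF cells. In wild-type cells Fbxo5 was not called, at -0.97 (adjusted p = 0.183), or 0.28 (adjusted p = 0.324) without replicate 2.

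Of 18 condensin and cohesin genes 3 fell and 2 rose in wild-type cells (3 and 4 without replicate 2), and 14 fell and 1 rose in ΔN-VEGF cells. Among 15 genes of G2/M gene transcription 3 fell in wild-type cells (3, with 2 that rose, without replicate 2), and 9 did so in ΔN-VEGF cells. Mybl2, which encodes B-MYB, was at 0.14 ± 0.64 (SE, adjusted p = 0.887) in wild-type cells and fell by 2.07 in ΔN-VEGF cells (adjusted p = 0.0234). Of the 5 subunits of MuvB, Lin9, Lin52 and Lin54 fell by 1.54, 0.69 and 1.75 in ΔN-VEGF cells, and Lin37 and Rbbp4 were not called, at 0.07 and -0.11. Lin52 also fell in wild-type cells, by 0.78 ± 0.24 (SE, adjusted p = 0.0236). With all libraries the interaction was -0.94 (Lin9), 0.09 (Lin52) and -1.10 (Lin54), none of them called. Without wild-type normoxia replicate 2 these were -1.55, -0.15 and -1.71, with Lin52 alone not called. Without wild-type normoxia replicate 2 Mybl2 was at 1.76 (adjusted p = 0.000161) in wild-type cells.

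DNA replication genes, which act in the S phase before, were taken for comparison. Of 40, 2 fell in wild-type cells (18.3% of all tested genes) and 33 in ΔN-VEGF cells (26.4% of all). The medians were -0.40 and -1.66, beside -1.34 and -2.39 for the mitosis and spindle genes. Without wild-type normoxia replicate 2, 22 of the 40 rose in the wild type, 1 fell and the rest were not called, at a median of 0.41. In the same fit 6 of the 50 mitosis and spindle genes rose, 33 fell and the rest were not called, with a median of -0.58, and of all tested genes 27.1% rose and 26.9% fell. Averaged over the list and centred, the replication genes were at -0.47, 1.25 and -0.45 in wild-type normoxia and at 0.007, 0.001 and 0.005 in wild-type hypoxia. The difference between the lists was not tested.

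**Figure D5:**
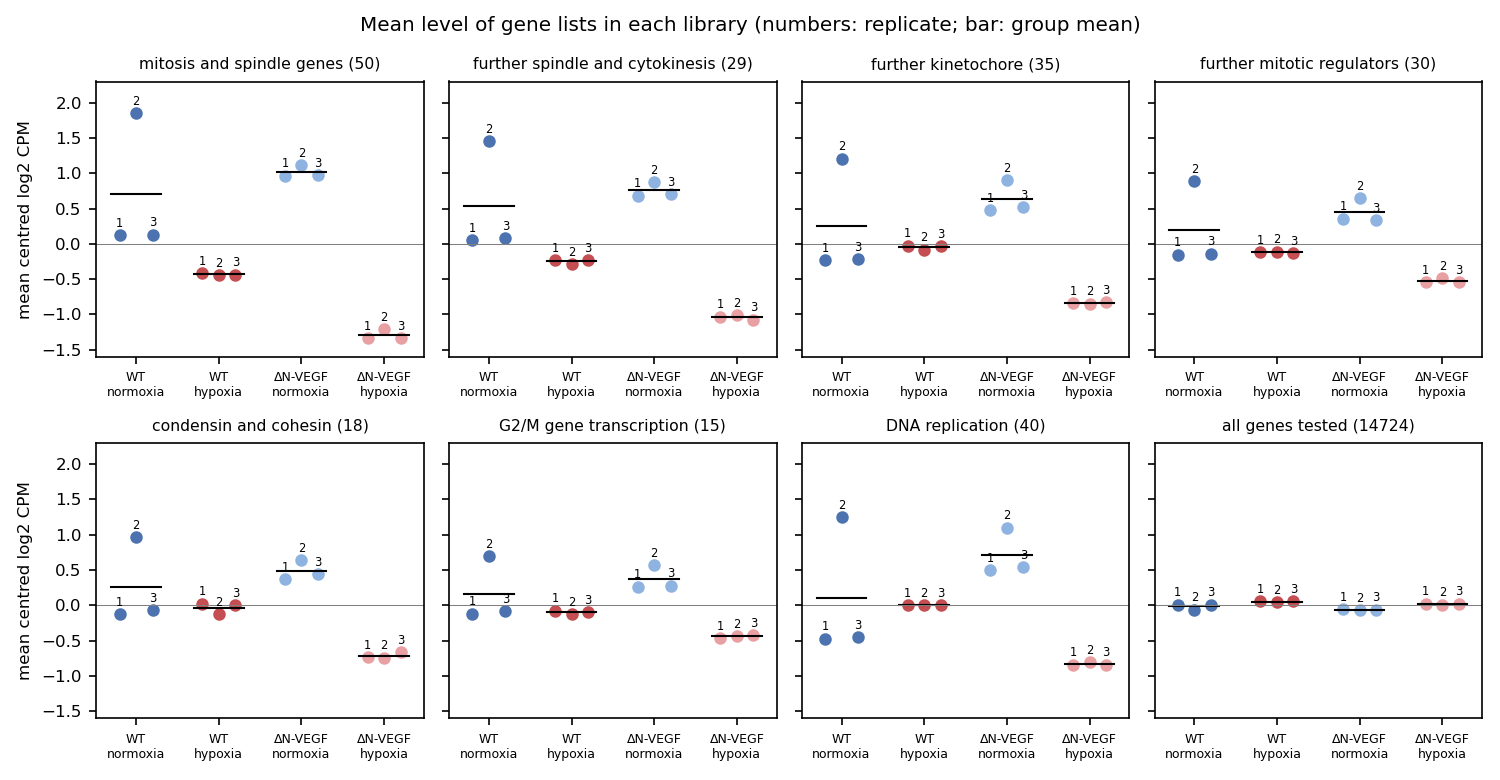
Mean centred log2 CPM (y axis) of the mitosis and spindle genes, 6 other lists and all 14724 tested genes in each library, by group; numbers are replicates and bars group means. The mean of the 50 genes falls from normoxia to hypoxia in both lines, replicate 2 of wild-type normoxia is the highest point in each list but the last, and the DNA replication mean is higher in wild-type hypoxia than in wild-type normoxia replicates 1 and 3.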

How the data were processed

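RNA of NIH3T3 cells was sequenced as 12 libraries made with a TruSeq kit that does not mark strand. The deposited values are raw read counts per gene, which the authors made with Trim Galore and cutadapt 1.10, TopHat2 2.1.0 with Bowtie2 2.2.6 and HTSeq 0.6.1 on GRCm38.p6, per the submitters' processing notes and methods. The strand setting of the counting was not given in the sources used here. Counts were fitted with edgeR 4.0.16 (R 4.3.3) over all 12 libraries with 1 mean per group, TMM factors and its filter on low counts, and p-values of the quasi-likelihood test were adjusted by Benjamini-Hochberg over 14724 genes. log2 CPM used a prior count of 2. The scripts were tested on simulated data. Alternatives were DESeq2 1.42.0, other scaling and filters, a replicate block and left-out libraries.

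The genes, lists and alternatives were chosen with earlier results of these data known. Values in every library are given for the most abundant gene of each role class and for the genes with the lowest and highest fold change in each comparison. Same-numbered libraries of the lines correlated in normoxia (r 0.378, 0.498 and 0.355, over genes), but numbers 1 and 3 crossed did so about as much (0.347 and 0.358), so this sets replicate 2 apart rather than pairing all 3. In the other comparisons r of same-numbered libraries was -0.018 to 0.109. No replicate pair differed by less than sampling noise over all genes, where the lowest chi-square per gene was 2.86 against about 1 for sampling. Over the 50 genes the lowest was 1.25 (wild-type hypoxia 1 and 3). These values do not tell repeat libraries of a culture from separate cultures. Motif positions came from RefSeq promoters, and exonic lengths and overlaps from GENCODE M21, both on GRCm38.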

Additional observations from a re-analysis of the deposited data

How the results depend on the processing

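The fall of the 50 genes in ΔN-VEGF cells gave 50 calls under every alternative fit and 48 to 50 with any 1 of the 12 libraries left out. In wild-type cells the count of lower calls was 23 in a fit to those 6 libraries alone and 24 to 42 with 1 library left out, and the count of higher calls was 0 to 6, the 6 without normoxia replicate 2, and 7 without both normoxia libraries numbered 2. Between the lines in normoxia the count of higher calls was 0 to 47 with 1 library left out, 47 only without wild-type replicate 2, and 50 without both. In hypoxia the 9 lower calls (9.36% of all) became 22 with DESeq2, 22 with no filter on low counts and 15 with the replicate number as a block. With total counts only they became 33, where the median of all tested genes in this comparison moved from -0.015 to -0.235. They became 46 in the 6 hypoxia libraries alone (29.1% of all) and 46 without both normoxia libraries numbered 2 (28.3% of all). Leaving out 1 library gave 0 to 45, and the higher calls were 1 in the 6 libraries and 1 without both. For the interaction DESeq2, total counts only and no filter gave 2 lower calls each, 1 library left out 0 to 50 (50 without wild-type normoxia replicate 2, else 0) and both left out 50. With the replicate block the other counts stayed within 1.5 times. For wild-type and ΔN-VEGF normoxia libraries of the same number, the block gave 0 calls, also in the 6 normoxia libraries alone. A change of sign with a call in either fit occurred only without wild-type normoxia replicate 2 or without both normoxia libraries numbered 2. The causes of these shifts were not tested, beyond the libraries that each fit leaves out. Where no share of all tested genes is printed here or above for a fit, its count cannot be set against all genes.

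Some fold changes that were not called with all libraries had the other sign, and were called, without wild-type normoxia replicate 2, alone or with its ΔN-VEGF counterpart. In wild-type cells the log2 fold changes with 1 library left out ran, by gene, over Bub1 -0.54 to 0.77, Ndc80 -0.67 to 0.43, Spc24 -0.75 to 0.55, Birc5 -1.39 to 0.34, Gtse1 -0.74 to 0.75 and Foxm1 -0.83 to 0.59. Without both normoxia libraries numbered 2 they were Bub1 0.77, Ndc80 0.44, Spc24 0.55, Aurkb 0.16, Birc5 0.34, Gtse1 0.75 and Foxm1 0.59. Between the lines in normoxia the ranges with 1 library left out were Ccnb1 -0.35 to 1.08, Cdc25c -0.45 to 0.38, Plk1 -0.41 to 1.07, Aurka -0.50 to 0.89, Nek2 -0.64 to 0.62, Bub1b -0.30 to 0.74, Cdc20 -0.38 to 0.88, Ube2c -0.52 to 0.88, Espl1 -0.34 to 0.94, Cenpf -0.34 to 0.53, Kif20a -0.39 to 0.68, Kif23 -0.45 to 0.62, Tpx2 -0.30 to 0.65 and Foxm1 -0.43 to 0.99. Without both they were Ccnb1 1.07, Ccnb2 0.58, Cdc25b 0.31, Cdc25c 0.43, Plk1 1.04, Aurka 0.81, Nek2 0.49, Bub1b 0.82, Cdc20 0.93, Ube2c 0.81, Espl1 0.91, Cenpa 0.23, Cenpf 0.62, Kif20a 0.74, Kif23 0.54, Tpx2 0.67 and Foxm1 0.85. The highest value of each range is that without wild-type normoxia replicate 2.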
